A study of Schizosaccharomyces pombe with 18 samples.

Results

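The respiratory chain and citric acid cycle genes of the fission yeast Schizosaccharomyces pombe were taken by name: every S. pombe probe set whose array symbol begins with cox, cyc, cyt, qcr, rip, atp, sdh, idh, kgd, cit, fum or lat followed by a digit. This gave 49 probe sets of 2937 named S. pombe probe sets, for 50 genes, since cox1102 and cox1101 share 1 probe set and cannot be told apart. The name decides membership, so assembly factors stand beside subunits. A further 22 genes of the reference annotation match the pattern and have no named probe set on the array. Among these are kgd1 and 8 entries of the mitochondrial genome, and they were not analysed here. sdh4 is listed as tim18 in the reference and is given under its array name.

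Mitochondria burn pyruvate in the citric acid cycle and pass the electrons along the respiratory chain to oxygen, and the proton gradient made on the way drives ATP synthase. S. pombe has no complex I, so electrons enter through succinate dehydrogenase (complex II) and other dehydrogenases and then pass through complex III, cytochrome c and complex IV. While glucose lasts, fission yeast mainly ferments it and keeps respiration low.

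RNA came from cells of strain SP-Q01 (h-, leu1-32), which all carried a plasmid: WT cells the empty vector, rpl32-1 and rpl32-2 cells a vector with that ribosomal protein L32 gene, meant to overexpress it. The labels name the plasmid pESP3 and the methods pREP3X. Cells grew in EMM2 minimal medium at 30 °C to an OD600 of 0.5 (log phase) or 10 (early stationary phase), with 3 arrays from separate cultures for each of 6 groups, 18 in all. The study asked which genes the paralogs regulate differently in the 2 phases.

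The arrays bear on their labels only in part. The rpl32-2 probe set lay at 13.50 to 13.78 (log2) on the WT arrays, but log phase arrays 2 and 3 labelled rpl32-2 gave only 10.88 and 8.40, and their early stationary phase arrays 2 and 3 only 8.80 and 7.72. On early stationary phase array 3 labelled rpl32-1 it was 8.96. The rpl32-1 probe set ran from 13.48 to 14.37 on the WT arrays. On the arrays with its own label it stayed within that range apart from early stationary phase array 3, at 11.68. These levels do not show the labelled overexpression, so the strains are named below as the arrays are labelled. Both probe sets already read high on the WT arrays, and how much further rise they could show was not tested. Whether the probes read the plasmid transcript was not tested either. The deposited values also fell into 5 sets of arrays with different distributions that cross the groups, and levels and changes below are quantile-normalized log2 values (over the named S. pombe probe sets) unless they are called deposited. Signal was weakest on WT early stationary phase array 3 and on log phase array 3 labelled rpl32-1, where 21.7% and 18.7% of S. pombe probe sets did not exceed background. Of the 49 probe sets, 48 lay above background on all arrays (98.0%, against 73.2% of all S. pombe probe sets), and atp12 missed it on WT early stationary phase array 3 alone. A probe set has its own scale, so only arrays, never genes, are compared by level. An array level is relative to the total RNA of the culture, so that fewer cells using a gene and less of its RNA per cell cannot be told apart.

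Between log phase and early stationary phase of WT cells most of the respiratory genes shifted upward by a small step, and the citric acid cycle genes idh1, idh2, kgd2 and cit1 by a larger one. Of 49 probe sets 35 rose (adjusted p under 0.05 in limma), or 71.4%, against 19.2% of all S. pombe probe sets, and 2 fell, against 24.7%. The median change was 0.54 (log2), or 1.46-fold, while all probe sets together had a median of −0.07. By sign alone 43 lay higher in early stationary phase, against 46.0% of all probe sets. A gene is called where it passes the test and also changes at least 2-fold. Just 6 were called, cit1, idh1, idh2, kgd2, cox13 and cox10, all higher, which is 12.2% against a background of 9.74%. The share of genes past 2-fold was thus near the background, and the share that rose by less was not. In 33 of the 49 no early stationary phase array overlapped a log phase array from above (24.7% of all probe sets), and in 2 none did from below (32.6%).

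**Figure D1:**
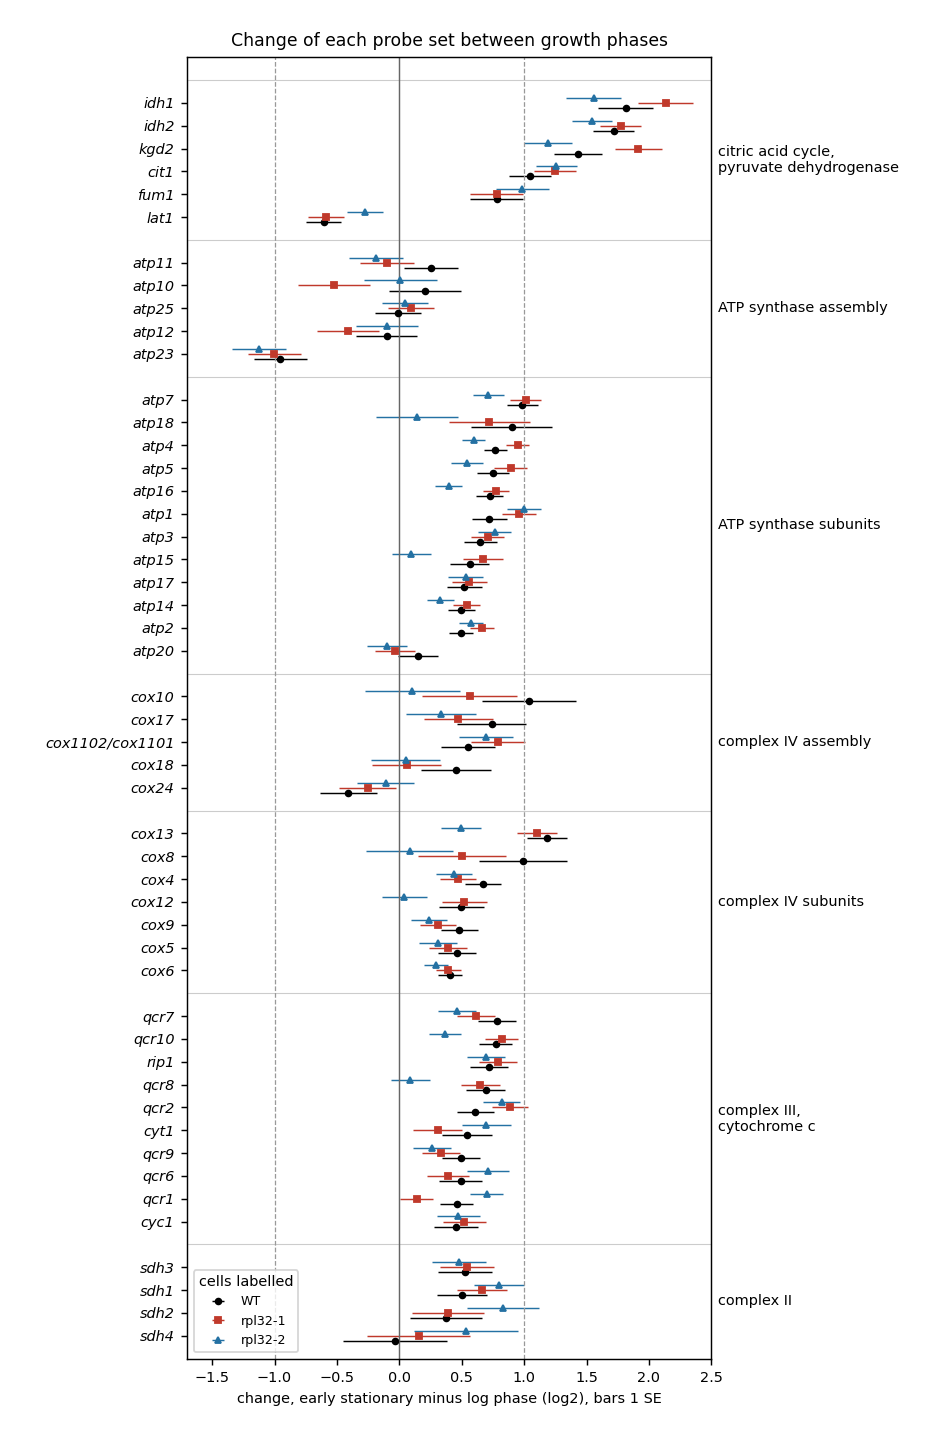
Change between growth phases (early stationary minus log phase, log2) for the 49 probe sets, grouped by role, in cells labelled WT (circles), rpl32-1 (squares) and rpl32-2 (triangles). Bars are 1 SE, dashed lines mark 2-fold. Most points lie between 0 and 1 in every strain, idh1, idh2, kgd2 and cit1 lie beyond 1, and atp23 lies near −1.

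The largest changes were those of 3 citric acid cycle genes. idh1 and idh2 encode the subunits of the NAD-linked isocitrate dehydrogenase, an oxidative step of the cycle. idh1 stood at 10.91, 11.13 and 11.13 on the WT log phase arrays and at 12.99, 12.81 and 12.82 on the WT early stationary phase arrays. The groups lay far apart, a rise of 1.81 (SE 0.22, 3.52-fold, adjusted p 2.9e-05 in limma, 3 arrays per phase). For idh2 the values were 11.16, 11.14 and 11.16 in log phase, then 13.05, 12.79 and 12.78 in early stationary phase. Its log phase arrays were almost equal, and the rise was 1.72 (SE 0.16, 3.29-fold, adjusted p 6.0e-06 in limma).

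kgd2 encodes the succinyltransferase subunit of alpha-ketoglutarate dehydrogenase, the enzyme that acts after isocitrate dehydrogenase. On the WT arrays it read 11.53, 11.49 and 11.52 at first, then 13.13, 12.85 and 12.84 in early stationary phase. Again no array overlapped, and the change was 1.43 (SE 0.19, 2.69-fold, adjusted p 5.9e-05 in limma). cit1, the citrate synthase gene at the entry of the cycle, ran from 12.42 to 12.55 in log phase and from 13.26 to 13.78 in early stationary phase, a rise of 1.05 (SE 0.17, 2.07-fold, adjusted p 0.000206 in limma). It fell short of 2-fold without WT early stationary phase array 1, at 0.92. fum1 (fumarase) rose by 0.78 (SE 0.21, adjusted p 0.00865 in limma), although its WT early stationary phase arrays spread from 11.36 to 12.40.

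lat1 went the other way. It encodes the acetyltransferase subunit of pyruvate dehydrogenase, the complex that feeds the cycle from pyruvate. WT arrays had 12.45, 12.62 and 12.64 in the first phase and 12.21, 12.02 and 11.66 in the second. All log phase arrays lay above all early stationary phase arrays, and lat1 fell by 0.61 on the log2 scale (SE 0.14, adjusted p 0.00346 in limma). So 5 of the 6 probe sets of this role rose and 1 fell.

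**Figure D2:**
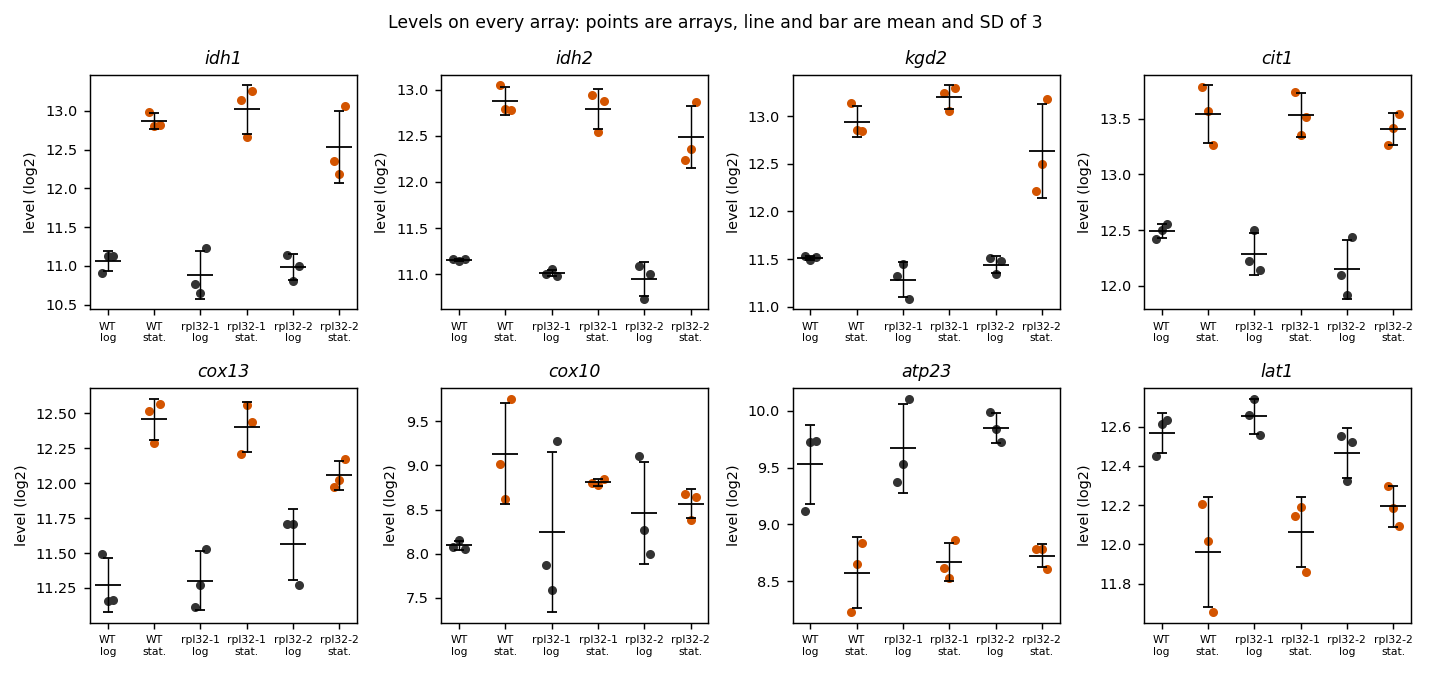
Levels (log2) of the 6 genes called in WT cells and of atp23 and lat1, the 2 that fell, on every array by group (log phase dark, early stationary phase orange); horizontal marks and bars are the mean and SD of 3 arrays. idh1, idh2, kgd2, cit1 and cox13 do not overlap between the phases of any strain, and cox10 overlaps on the arrays labelled rpl32-1 and rpl32-2.

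Complex III and cytochrome c moved most evenly. All 10 probe sets of this role rose in WT cells, with changes from 0.45 to 0.78 and a median of 0.58, and none reached 2-fold. The largest was that of qcr7, a small subunit (0.78), followed by the small subunit gene qcr10 (0.77, SE 0.13) and rip1 (0.71), which encodes the Rieske iron-sulfur protein. cyc1, the gene of cytochrome c itself, had the smallest, 0.45 (SE 0.17, adjusted p 0.0447 in limma). It did not pass with the set of arrays as a block (0.35, adjusted p 0.104).

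In complex IV, cytochrome c oxidase, all 7 nuclear subunit genes rose (median 0.50). cox13, a nuclear subunit, was called: WT cells gave 11.50, 11.15 and 11.17 in log phase, against 12.52, 12.29 and 12.57 in early stationary phase. That is a gap wider than the spread of either group, a rise of 1.19 (SE 0.16, 2.27-fold, adjusted p 5.9e-05 in limma). The other subunits rose by 0.41 (cox6) to 0.99 (cox8). cox8 had the widest error among them, 0.35, and did not pass without the 2 weakest arrays (0.91, adjusted p 0.0853 in limma).

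Assembly factors of complex IV were less uniform, with 2 of 5 passing. cox10, whose product makes the precursor of the enzyme's heme A, had 8.08, 8.15 and 8.05 on the WT log phase arrays and 9.02, 8.62 and 9.76 on the early stationary phase arrays. The highest of these is the array of weakest signal. The rise was 1.04 (SE 0.38, adjusted p 0.0380 in limma), and it was under 2-fold without the 2 weakest arrays (0.73, adjusted p 0.0301) and with the set of arrays as a block (0.63). cox17, a copper chaperone gene, rose by 0.74 (SE 0.28, adjusted p 0.0422 in limma), and did not pass without those arrays (0.51, adjusted p 0.116) or with the set of arrays as a block (0.42, adjusted p 0.114). The shared probe set of cox1102 and cox1101, for copper insertion, stayed just outside the threshold at 0.55 (adjusted p 0.0504) and passed with that block (0.71). cox18 (0.45) and cox24 (−0.41) did not pass either.

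ATP synthase behaved differently in its subunits and in its assembly factors. Of 12 subunit genes 11 rose in WT cells, with a median of 0.68 and a largest change of 0.98 in atp7, a stator subunit gene that stayed just under 2-fold (SE 0.12, adjusted p 3.6e-05 in limma). The catalytic core genes atp1 (alpha subunit, 0.72), atp2 (beta subunit, 0.49) and atp3 (gamma subunit, 0.65) were among them. atp4, the gene of stator subunit b, had the smallest spread of all 49 probe sets (pooled SD 0.07) and rose by 0.77 (SE 0.09). Only atp20, the gene of subunit g, did not pass (0.15). The 5 assembly factors did not share this rise: 0 rose, 1 fell and the median was −0.01.

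The assembly gene that fell was atp23, which encodes a protease and chaperone for another ATP synthase subunit. The WT log phase arrays gave 9.12, 9.73 and 9.73, those of early stationary phase 8.23, 8.65 and 8.84. No arrays overlapped, and it fell by 0.96 on the log2 scale (SE 0.21, adjusted p 0.00234 in limma). atp10, atp11, atp12 and atp25, further assembly genes, had changes of −0.10 to 0.26 and did not pass.

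In WT cells the complex II values turned on 1 array. Succinate dehydrogenase belongs both to the cycle and to the chain, and 0 of its 4 genes passed in WT cells, at a median change of 0.44. WT early stationary phase arrays 1 and 2 had 13.01 and 12.75 for sdh2, the iron-sulfur subunit gene, against 12.05 to 12.08 in log phase, but array 3 had 11.57, below all log phase arrays. sdh4, a membrane subunit gene, had 12.82 and 12.52 on arrays 1 and 2 and 10.47 on array 3, its lowest level of all 18. sdh1 (flavoprotein subunit) and sdh3 (membrane subunit) were lowest of the WT early stationary phase on that array as well. Without the 2 weakest arrays all 4 passed in limma, with rises of 0.77 (sdh1), 0.81 (sdh2), 0.89 (sdh3) and 0.70 (sdh4, adjusted p 0.00959). The share of all probe sets passing without those arrays is not given here, so this move need not be particular to complex II. With the set of arrays as a block, sdh1, sdh2 and sdh3 passed and sdh4 did not (0.36, adjusted p 0.410). Early stationary phase array 3 labelled rpl32-1, which was not of weak signal, was low too, with sdh2 at 11.87 and sdh4 at 11.62. The log phase arrays of that label ran from 11.80 to 11.89 and from 11.76 to 12.05. With each of the labels rpl32-1 and rpl32-2, 2 of the 4 rose between phases, against 22.6% and 15.9% of all probe sets.

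**Figure D3:**
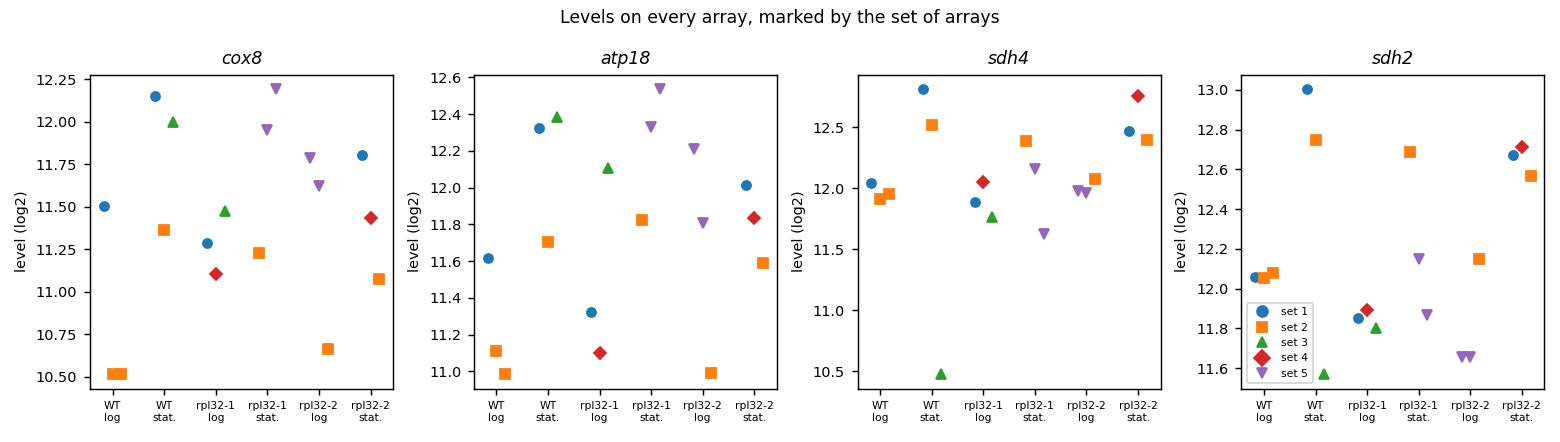
Levels (log2) of cox8, atp18, sdh4 and sdh2 on every array by group, with marker and colour showing which of 5 sets of like value distribution the array belongs to. In cox8 and atp18 the squares of the second set lie low in their groups, and in sdh4 and sdh2 the WT early stationary phase array of the third set lies below all WT log phase arrays.

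Some of the spread within groups went with the sets of arrays. For cox8 the 3 log phase arrays of the second set read 10.52 to 10.66 and the other 6 log phase arrays 11.11 to 11.78. In early stationary phase the second set had 11.07 to 11.36 and the others 11.44 to 12.19. atp18, the gene of a small ATP synthase subunit, showed the same order in early stationary phase (11.59 to 11.82 against 11.83 to 12.54). In log phase 10 of the 49 probe sets were lower on all arrays of the second set than on all others, where 10.4% of all probe sets were. Only 3 members were higher on all of its arrays, a smaller share than of all probe sets. Those log phase arrays were WT arrays 2 and 3 and array 3 labelled rpl32-2, so set and strain are mixed in these counts. In early stationary phase 4 members were lower, close to the share of all probe sets (7.08%), and 1 was higher (6.67% of all). The part of the sets of arrays in the phase changes was measured within sets. The WT arrays of the first set, 1 per phase, gave a median deposited change of 0.55 over the members. There 44 of 49 members and 44.5% of all probe sets were higher. Those of the second set, 1 early stationary against 2 log phase arrays, gave 0.45, with 44 of 49 higher and 46.4% of all. Neither has a replicate in early stationary phase. With the set as a block in the fit, 37 rose in WT cells, against 23.4% of all probe sets.

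The deposited values, without further normalization, did not carry these calls. There 0 members passed in WT cells in limma (4 at an unadjusted p under 0.05), and 28 of 49 lay higher, with a median of 0.07. The median of all S. pombe probe sets was −0.65 in these deposited values, so that the members' median lay above that of all genes, as it did after normalization. In the deposited values with the set of arrays as a block 24 members rose, against 19.7% of all probe sets. The methods' t-test, run on the normalized values and adjusted, called 5. For the deposited values without the block and for this t-test the share of all probe sets passing is not given here. Those counts therefore do not single out the members.

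The same shift was measured in both other strains. On the arrays labelled rpl32-1, 29 of the 49 rose and 2 fell, against 22.6% and 27.7% of all probe sets in limma, with a median change of 0.54. On those labelled rpl32-2, 28 rose and 1 fell, against 15.9% and 18.5%, with a median of 0.46. Of the 49, 22 rose in all 3 strains. The share of all probe sets that rose in all 3 was not counted, so that count does not single out the members. With both labels the called genes included idh1, idh2, kgd2 and cit1. Of the 7 called on the arrays labelled rpl32-1 (background 22.8% in both directions) 6 were higher, with atp7 and cox13 added to those 4, and atp23 was lower. Of the 6 called on the arrays labelled rpl32-2 (background 11.8%) 5 were higher, with atp1 added, and atp23 was lower. Both atp7 and atp1 lay at the 2-fold limit. For rpl32-1 atp7 read 11.89, 12.11 and 12.21 in log phase and then 13.03, 12.92 and 13.29, and for rpl32-2 atp1 went from 12.23, 12.23 and 12.49 to 13.36, 13.17 and 13.42. No array of one phase reached those of the other. With the set of arrays as a block neither was called (atp7 0.86, atp1 0.91), nor was atp23 for rpl32-2, which fell there by 0.88 on the log2 scale. With each array centred on its median in place of quantile normalization, 9 rose on the arrays labelled rpl32-2, nearer to the background of 11.8%, and 14 on those labelled rpl32-1 (19.8%).

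**Figure D4:**
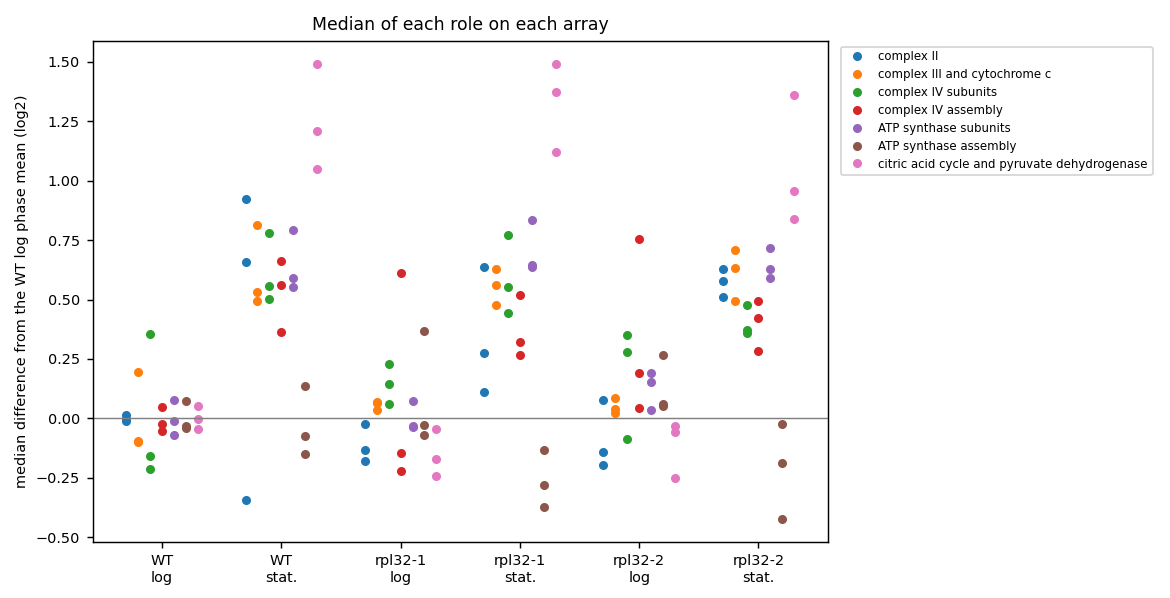
Median difference from the WT log phase mean (log2) of each of 7 roles on each of the 18 arrays, by group. For a WT log phase array the mean is that of the other WT log phase arrays. Citric acid cycle points reach 0.84 to 1.49 in early stationary phase, ATP synthase assembly points lie lowest there apart from the complex II point of WT array 3 at −0.34.

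On single arrays the members as a body separated the phases. Their median difference from the WT log phase mean ran from −0.06 to 0.16 on the 9 log phase arrays and from 0.50 to 0.79 on the 9 early stationary phase arrays. Each WT log phase array was set against the mean of the other WT log phase arrays. The phases did not overlap in any strain, while the strains overlapped within each phase. On these early stationary phase arrays 41 to 45 of the 49 lay above their WT log phase mean.

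For idh1 the arrays labelled rpl32-1 read 10.76, 10.66 and 11.23 in log phase, then 13.14, 12.66 and 13.25. It rose there by 2.13 (SE 0.22, 4.39-fold), the largest change of any member in the 3 strains. With the label rpl32-2 it ran from 10.81 to 11.14 in log phase and read 12.36, 12.19 and 13.07 in early stationary phase, a rise of 1.56 (SE 0.22, 2.94-fold). Early stationary phase arrays 1 and 2 of that label lay below every WT array of the phase, and array 3 above.

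kgd2 showed this split as well. With the label rpl32-2 it went from 11.51, 11.34 and 11.48 to 12.22, 12.50 and 13.18. Arrays 1 and 2 again lay below the WT arrays of that phase, and the rise was 1.19 (SE 0.19), or 0.92 without array 3 of the early stationary phase, which is under 2-fold. With the label rpl32-1 it went from 11.32, 11.45 and 11.08 to 13.24, 13.06 and 13.30, a rise of 1.92 (SE 0.19). idh2 on the arrays labelled rpl32-2 went from 11.09, 10.74 and 11.01 to 12.24, 12.35 and 12.87, a rise of 1.54 (SE 0.16). The low rpl32-2 probe set levels were on arrays 2 and 3 of this group, and their part in these values was not tested.

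cox13 on the arrays labelled rpl32-1 went from 11.11, 11.27 and 11.53 to 12.21, 12.56 and 12.44, close to WT. On those labelled rpl32-2 the phases were nearer, 11.71, 11.71 and 11.27 against 11.97, 12.02 and 12.17. They still did not overlap, and the rise was 0.49 (SE 0.16, adjusted p 0.0266 in limma). atp23, by contrast, fell in all 3 strains. With the label rpl32-1 it went from 9.37, 9.53 and 10.11 to 8.62, 8.53 and 8.86 (SE of the change 0.21, adjusted p 0.00140 in limma), and with the label rpl32-2 it fell by 1.12 on the log2 scale (SE 0.21). lat1 fell by 0.59 on the arrays labelled rpl32-1, and its change of −0.27 on those labelled rpl32-2 did not pass (adjusted p 0.156 in limma).

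**Figure D5:**
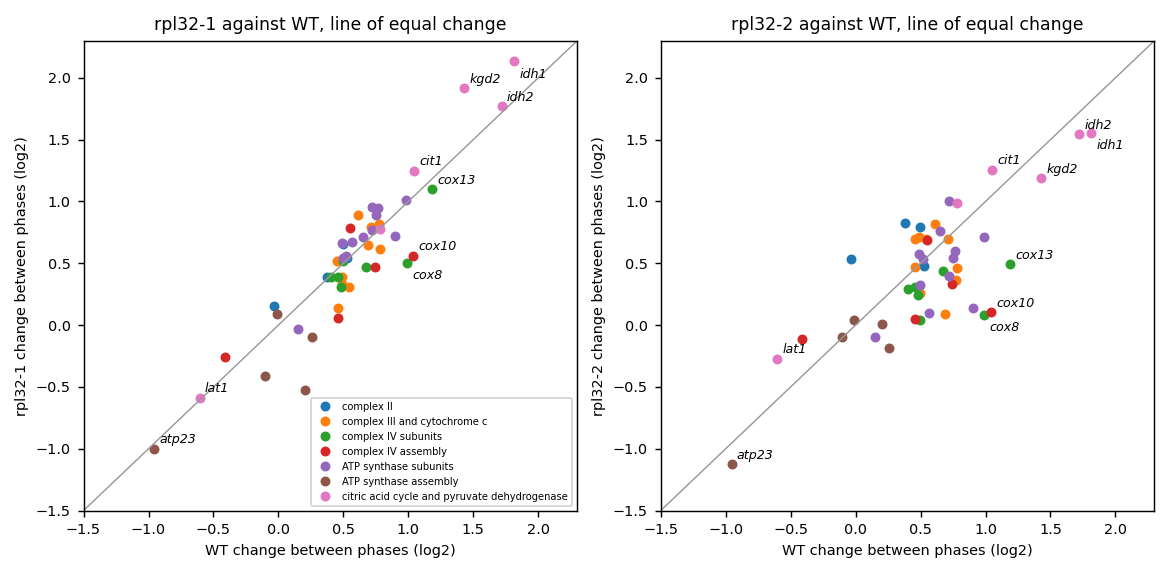
Change between phases (log2) of the 49 probe sets on the arrays labelled rpl32-1 (left) and rpl32-2 (right) against the change in WT cells, coloured by role, with the line of equal change. Points lie along the line on the left (r 0.92), and cox13, cox8 and cox10 lie below it on the right (r 0.76).

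Across the 49 probe sets the phase change on the arrays labelled rpl32-1 followed that of WT cells with a Pearson r of 0.92 (Spearman rho 0.87), against 0.88 over all 2937. For the arrays labelled rpl32-2 it was 0.76 (rho 0.55), against 0.81 over all. These are descriptions across genes, which are not independent, and the comparisons share no arrays but do share sets of arrays. The signed change was lower on the arrays labelled rpl32-2 than in WT cells for 30 of the 49, or 61.2%, against 49.1% of all probe sets. atp15 (epsilon subunit), qcr8 and cox12, which rose in the other strains, had changes of 0.10, 0.09 and 0.04 there, and cox5 had 0.31, all without passing.

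The difference between phase changes was tested directly. For rpl32-2 minus WT limma called 0 of the 49 and 0 of all probe sets (background 0.0%), with 4 members at an unadjusted p under 0.05, or 8.16% against 12.2% of all probe sets. These were cox13 (−0.69, SE 0.23), qcr8 (−0.60, SE 0.22), qcr10 and atp16, the delta subunit gene of ATP synthase, and the smallest adjusted p was 0.376. The widest differences, −0.93 for cox10 and −0.91 for cox8, had errors of 0.54 and 0.49. With array weights limma called 1 member, cox8 at −1.41 (adjusted p 0.0137), against 7.39% of all probe sets, and 13 members passed without the fold requirement, against 23.9% of all. These weights ran from 0.130 to 10.6 and their estimation stopped before it converged. The count of members with the lower signed change depended on the scaling: it was 44 with the set as a block, 39 after median centring and 0 as deposited. The share of all probe sets with a lower change is not given for these scalings, so these counts do not single out the members.

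For rpl32-1 minus WT limma also called 0 members (background 0.0%), and 0 had an unadjusted p under 0.05, against 6.64% of all probe sets. The median difference was 0.02, and 39 of the 49 intervals (95%) lay within 2-fold either way. atp10 (−0.73, SE 0.41) and kgd2 (0.49, SE 0.27) had the widest differences in the 2 directions, neither with an adjusted p under 0.70.

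Strains were then compared with WT cells within a phase, which is where an effect of the plasmid gene on respiratory transcripts would be read. In log phase 0 members were called by limma on the arrays labelled rpl32-1 (background 0.0%), with 1 at an unadjusted p under 0.05 (6.09% of all probe sets). This was the probe set of cox1102 and cox1101, with 10.13, 10.26 and 10.34 against 10.45, 10.81 and 10.90 in WT cells. Its arrays lay just below the WT arrays, a difference of −0.48 (SE 0.22, adjusted p 0.802 in limma). cox8 (0.45, SE 0.35) and atp10 (0.29, SE 0.29) had the largest positive differences, and atp25 (−0.23, SE 0.18) came next among the negative ones. The 95% interval of the difference stayed within 2-fold for 48 of the 49, all but cox8.

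On the log phase arrays labelled rpl32-2 0 members were called (background 0.0%), and 2 had an unadjusted p under 0.05 (2.76% of all probe sets), qcr8 and qcr10. Both were higher than in WT cells, qcr8 by 0.40 (SE 0.15). cox8 read 11.78, 11.62 and 10.66 against 11.50, 10.52 and 10.52 in WT cells, where the low arrays of both groups belong to the second set. atp18 had 12.21, 11.81 and 10.99 against 11.62, 11.11 and 10.98, also low on that set. The lowest differences were those of the cox1102 and cox1101 probe set (−0.41, SE 0.22) and of cit1 (−0.34, SE 0.17). Intervals within 2-fold were found for 45 of the 49.

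On the early stationary phase arrays labelled rpl32-1 limma called 0 members (background 0.0%) and 0 had an unadjusted p under 0.05 (4.02% of all). atp10 had 8.34, 8.04 and 8.22 there against 8.97, 8.02 and 8.95 in WT cells, a difference of −0.44 (SE 0.29) with overlapping arrays. kgd2 was higher by 0.26 (SE 0.19) and cox24 by 0.32 (SE 0.23), and cox10 lower at −0.32 (SE 0.38). For cox24, in S. cerevisiae needed for expression of an oxidase subunit, the difference turned on WT array 3 (8.97 against 10.24 and 10.09), and without the 2 weakest arrays it was −0.08.

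On the early stationary phase arrays labelled rpl32-2 limma called 0 members (background 0.0%), and 2 had an unadjusted p under 0.05, 4.08% against 21.0% of all probe sets. They were cox13 (−0.40, SE 0.16, adjusted p 0.178) and idh2 (−0.39, SE 0.16, adjusted p 0.199 in limma), both lower than in WT cells. For cox13 no array overlapped with the WT arrays, whereas idh2 on array 3 (12.87) lay within the WT range. cox10 had the lowest difference (−0.57, SE 0.38), with 8.68, 8.38 and 8.65 against 9.02, 8.62 and 9.76. sdh4 had the highest (0.60, SE 0.42), and it was −0.13 without the 2 weakest arrays. Of the 49 intervals 45 lay within 2-fold, so larger differences from WT cells were not excluded for cox8, cox10, sdh4 and atp18. With 3 arrays per group, smaller differences could not be resolved in most of the others, at a median SE of 0.16. The methods' t-test at 2-fold also gave 0 members in each of these 4 comparisons, unadjusted or adjusted. With array weights limma called 0 as well, but 15 members (11 higher) passed below 2-fold for rpl32-1 in log phase, where 33.8% of all probe sets passed. For rpl32-2 there were 13 (11 higher) in log phase, against 13.4% of all, and 7 (1 higher) at the later time, against 31.9%, and for rpl32-1 at the later time 0.

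The precision differed by gene. The pooled SD within groups had a median of 0.19 over the 49, against 0.27 over all S. pombe probe sets, and was lowest in atp4, atp2 (0.07) and cox6 (0.07). It was highest in sdh4 (0.55), cox10 (0.50), cox8 (0.46) and atp18 (0.43), the genes that stand out in several comparisons above.

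Fewer genes of neighbouring pathways rose. In WT cells 1 of 6 genes of pyruvate dehydrogenase and other citric acid cycle enzymes rose (dld1, dihydrolipoamide dehydrogenase, 0.38) and 4 fell, against 19.2% and 24.7% of all probe sets. The fallers were pda1 (−0.48) and pdb1 (−0.44), which encode the subunits of the first pyruvate dehydrogenase enzyme and which moved in the direction of lat1, with idp1 (−0.39) and lsc1 (−0.56). Of 8 heme synthesis genes 0 rose and 5 fell, among them hem3 (porphobilinogen deaminase), which fell by 1.36, and hem1 (aminolevulinate synthase), which fell by 0.92. On the arrays labelled rpl32-1 5 of the 8 fell, against 27.7% of all probe sets, and on those labelled rpl32-2 1 did, against 18.5%.

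Ubiquinone is the electron carrier between complex II and complex III. Of 12 probe sets matched by symbol to its synthesis, 4 were higher and 2 lower in WT cells. One of the 12 matches, ybt1 (−0.39 in WT cells, not passing), encodes a transporter. Of all probe sets 19.2% rose and 24.7% fell. Among the risers were coq7 at 0.83 and coq3 at 0.57. On the arrays labelled rpl32-1 6 of the 12 rose and 2 fell, against 22.6% and 27.7% of all. On those labelled rpl32-2 5 rose and 0 fell, against 15.9% and 18.5%. For the mitochondrial ribosome 5 of 48 rose and 9 fell, with a median of −0.07, equal to that of all probe sets, and for mitochondrial import 2 of 21 rose and 5 fell. One of the 2 import matches that rose, tim11, encodes an ATP synthase subunit (0.36). In the fission yeast CCAAT-binding factor, a regulator of respiratory genes, php2 rose by 1.71 and php5 by 0.58, whereas php3 (−0.17) and php4 (−0.05) did not pass. php2 also rose on the arrays labelled rpl32-1 (1.47) and rpl32-2 (1.35). Of 2 alcohol dehydrogenase genes, adh1 fell by 2.18 and adh4 rose by 1.24 in WT cells. These lists are small and were drawn up by symbol, so their counts describe the named genes alone.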

How the data were processed

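The authors deposited log2 expression per probe set of Affymetrix Yeast Genome 2.0 arrays, made with Partek by RMA. The sources used here do not say which arrays were normalized together. No column lacked a sample (0). Probe sets were named by the platform annotation, 5538 of 10928, and 2601 of S. cerevisiae and 5390 unnamed or control probe sets were left out. Background is percentile 95 of the S. cerevisiae probe sets of an array. Sets of arrays were formed by single linkage at a mean difference of 0.2 between ranked values.

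After quantile normalization, limma 3.58.1 (R 4.3.3, statmod 1.5.0; tables in Python 3.11.15) fitted 6 group means with 12 residual degrees of freedom, two-sided with Benjamini-Hochberg adjustment over all 2937 probe sets. The fit was tested on simulated data with independent errors and no sets of arrays. That test cannot show how the fit behaves with the sets found here. Arrays per group, not depth, limit the precision. Alternatives covered normalization, variance model, blocks, the methods' t-test and left-out arrays. Values on every array are given for members called in WT cells, at most 3 per role, and for the largest strain differences, and were added for lat1, atp23, atp7, atp1 and complex II after their values were seen. The members and gene lists were chosen with earlier results of these data known. Promoter and protein sequences were not used here.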

Additional observations from a re-analysis of the deposited data

How the results depend on the processing

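Each comparison was paired with each alternative setting it allowed. Counts of called members kept within 1.5 times the value given above in 282 of 293 such pairs. The median changes stayed within the spread in 280. Most of the pairs belong to strain comparisons and differences where 0 were called, and there 0 again counted as kept. The total therefore says little about how firm the calls are, and the exceptions lay mainly in the phase comparisons. In WT cells (6 called) the exceptions were 0 as deposited, 10 with array weights and 37 by adjusted p alone. On the arrays labelled rpl32-1 (7 called) they were 1 as deposited, 3 after median centring and 31 by adjusted p alone. For rpl32-2 (6 called) they were 2 as deposited, 2 after median centring, 3 with the set of arrays as a block in the deposited values, an alternative added after seeing the data, and 29 by adjusted p alone. The difference between phase changes of rpl32-2 and WT gave 1 with array weights in place of 0. These counts are of members alone, without the share of all probe sets called in each setting, so a move need not be particular to the members. The cause was not tested. Leaving out single arrays gave 4 to 9 called in WT cells (4 without early stationary phase array 1, 9 without array 2), 6 to 8 for rpl32-1, 5 to 6 for rpl32-2 and 0 to 0 in all strain comparisons and differences. cox10 in WT cells lost its call in 8 of the settings other than left-out arrays, and atp7 and atp23 (rpl32-1) and atp1 and atp23 (rpl32-2), which lie near 2-fold, lost theirs in several. No called change turned its sign. With the replicate number as a block 6, 7 and 6 members were called in the 3 phase comparisons, as without it. The numbers gave no clear pairing of the arrays, though a partial one may exist. Deviations had a median r of 0.06 in same-number pairs and −0.03 in other pairs. Of 45 same-number pairs 21 lay over 0.1, and 9 of 18 arrays matched their own number best.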

Other observations

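The arrays also carry S. cerevisiae probe sets, 60 of which match the same name pattern. On all 18 arrays 3 of them, ATP1, ATP2 and CYT1, lay above the background, which by definition 5% of the S. cerevisiae probe sets of an array exceed. A further 11 did so on some arrays and 46 on none. ATP1 ran from 5.64 to 9.87 (deposited log2) over the arrays. Whether S. pombe RNA binds these probes was not tested.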
